A study of Homo sapiens with 9 samples.

Results

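Of 25593 loci in each of 9 expression tables, 41 genes of the fibroblast growth factor (FGF) system were examined across 3 culture media. They were chosen by symbol, by a rule that used no measured value, but with earlier results of these data known. The set held 22 FGF family genes, 4 receptor tyrosine kinases, the kinase-less receptor FGFRL1 and 14 genes that FGF signalling is known to switch on and that mostly restrain it. The cells were neural crest-like progeny of the human embryonic stem cell line H9, which is an established line. Differentiation of H9 took 6 days and used 10 µM SB431542, which blocks the type I receptors of TGF-β, Activin and Nodal. Cells with high CD271 and without CD73 were then sorted onto fibronectin and grown under 5% oxygen, although the label for cell type lists both CD271 and CD73 as positive.

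FGF2 was added to the medium of every group, at 5 to 10 ng/ml. In F_FSB, cells grown with FGF2 and SB431542 for 4 passages were moved to FGF2 without the inhibitor for 3 more. In FSB, FGF2 was combined with 3 to 5 µM SB431542 throughout. In F, FGF2 was given alone after the sort. Each group had 3 libraries from cultures harvested at passage 6 to 7. The 3 libraries of a group are called biological replicates in the design text, but whether they came from separate sorts is not stated, so p-values measure the spread between these cultures of 1 cell line. No group without FGF2 was examined. Earlier exposure to the inhibitor during differentiation was common to all 9 libraries.

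FGFs are secreted ligands that bind receptor tyrosine kinases together with heparan sulphate on the cell surface. The active receptor recruits adaptor proteins and drives the RAS-ERK kinase cascade. ERK then induces the PEA3 transcription factors ETV1, ETV4 and ETV5 and a layer of inhibitors, the Sprouty and SPRED proteins, the DUSP phosphatases and IL17RD, which limit the same cascade. In the embryo, FGF signals act on cranial neural crest and on the skeletal mesenchyme that it forms, and FGF2 is a common mitogen for such cells in culture.

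Values are FPKM, that is, fragments scaled to transcript length and to the mapped fragments of the library, so levels of different genes can be set side by side. FPKM sums ran from 361026 to 506146 per library, with the highest in F_FSB replicate 2 and the next, 395596, in FSB replicate 2. Fragment counts are not in the tables. Of 10 neural crest markers, 8 had a group mean of 1 FPKM or more, but SOX10 did not exceed a group mean of 0.612 FPKM and FOXD3 did not exceed 0.0151 FPKM. All 8 mesenchymal markers exceeded 1 FPKM, with a summed level of 6297 to 8165 FPKM in F_FSB, 1278 to 1364 FPKM in FSB and 6755 to 7482 FPKM in F. COL1A1 and COL1A2 made up most of that sum, and COL1A1 averaged 4102 ± 471 FPKM in F_FSB, 176 ± 26.9 in FSB and 3941 ± 505 in F (SD, n = 3). DCN, at 95.6 ± 40.0, 2.37 ± 0.902 and 170 ± 87.0 FPKM in the same order, was also low in FSB. So was NT5E, at 63.0 ± 15.0, 20.0 ± 9.37 and 72.9 ± 22.9 FPKM. PDGFRA had 64.8 ± 21.1, 50.1 ± 4.74 and 118 ± 38.6 FPKM. Differences were smaller for PDGFRB, at 94.1 ± 22.4, 91.1 ± 13.6 and 82.5 ± 20.9 FPKM, and PRRX1, at 206 ± 43.8, 177 ± 6.38 and 161 ± 21.8 FPKM. THY1 had 27.4 ± 20.9, 29.3 ± 6.44 and 24.6 ± 11.9 FPKM. The crest list summed to 141 to 166 FPKM in F_FSB, 429 to 465 FPKM in FSB and 169 to 199 FPKM in F. Its genes did not all differ alike. NGFR had 4.89 ± 3.01, 120 ± 15.3 and 20.0 ± 20.4 FPKM in that order, and TWIST1 had 32.4 ± 8.43, 96.0 ± 3.62 and 28.7 ± 7.26 FPKM. SNAI2, at 46.3 ± 4.85, 68.6 ± 2.58 and 63.1 ± 9.13 FPKM, differed little between FSB and F, as did SOX9. TFAP2B was highest in F_FSB, at 14.0 ± 10.5, 8.56 ± 1.12 and 6.51 ± 8.58 FPKM. Lists for other cell types were also summed per library. The epithelial list had 37.0 to 211 FPKM, mostly from KRT8 and KRT18, while EPCAM did not exceed a group mean of 0.555 FPKM. A neural list had 57.3 to 145 FPKM, mostly from TUBB3. Pluripotent, endothelial, blood, and melanocyte and glia lists had at most 19.0 FPKM. The part of all these markers in the results below was not tested. In such bulk samples, fewer cells of a type and less RNA per cell cannot be told apart.

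Genes were tested where at least 3 of the 9 libraries reached 1 FPKM, which 25 of the 41 genes did. Changes are differences of log2(FPKM + 1), a scale that understates the change of genes at low levels. The test was limma with Benjamini-Hochberg (BH) adjustment across the 13216 genes that passed the filter, and 0.05 was the threshold. Below, FSB against F stands for FSB minus F, and likewise for the other pairs. Between FSB and F, 9 of the 25 tested genes passed, against 41.9% of all genes tested. Of these, 3 were higher in FSB, against 28.5% of all genes, and 6 were lower, against 13.4%. Between F_FSB and FSB, 8 of 25 passed, against 41.8% of all genes, 4 of them higher (13.7% of all) and 4 lower (28.2% of all). Groups did not overlap for 12 of 25 in FSB against F (57.9% of all genes) and for 13 of 25 in F_FSB against FSB (55.8% of all). These 2 comparisons share the FSB libraries, so their values are given side by side and not as separate evidence. Between F_FSB and F, 0 of 25 passed (limma, BH-adjusted), as against 0.00757% of all genes, and 5 had an unadjusted p under 0.05, against 9.04% of all genes. Median log2 changes of the 25 were -0.16, -0.13 and -0.35 for FSB against F, F_FSB against FSB and F_FSB against F. Those of all genes tested were 0.14, -0.13 and -0.0021. In F_FSB against F, 18 of 25 changes were below 0, beside 50.5% of all genes. Medians and signs were not tested. FGFR2, FGFR3 and FGFR4 passed the filter on low values only through their FSB libraries. FGF1 also needed its FSB libraries to pass, although F_FSB replicate 2 and F replicate 3 reached 1 FPKM as well. For these reasons the counts say little about the 41 genes as a set.

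**Figure D1:**
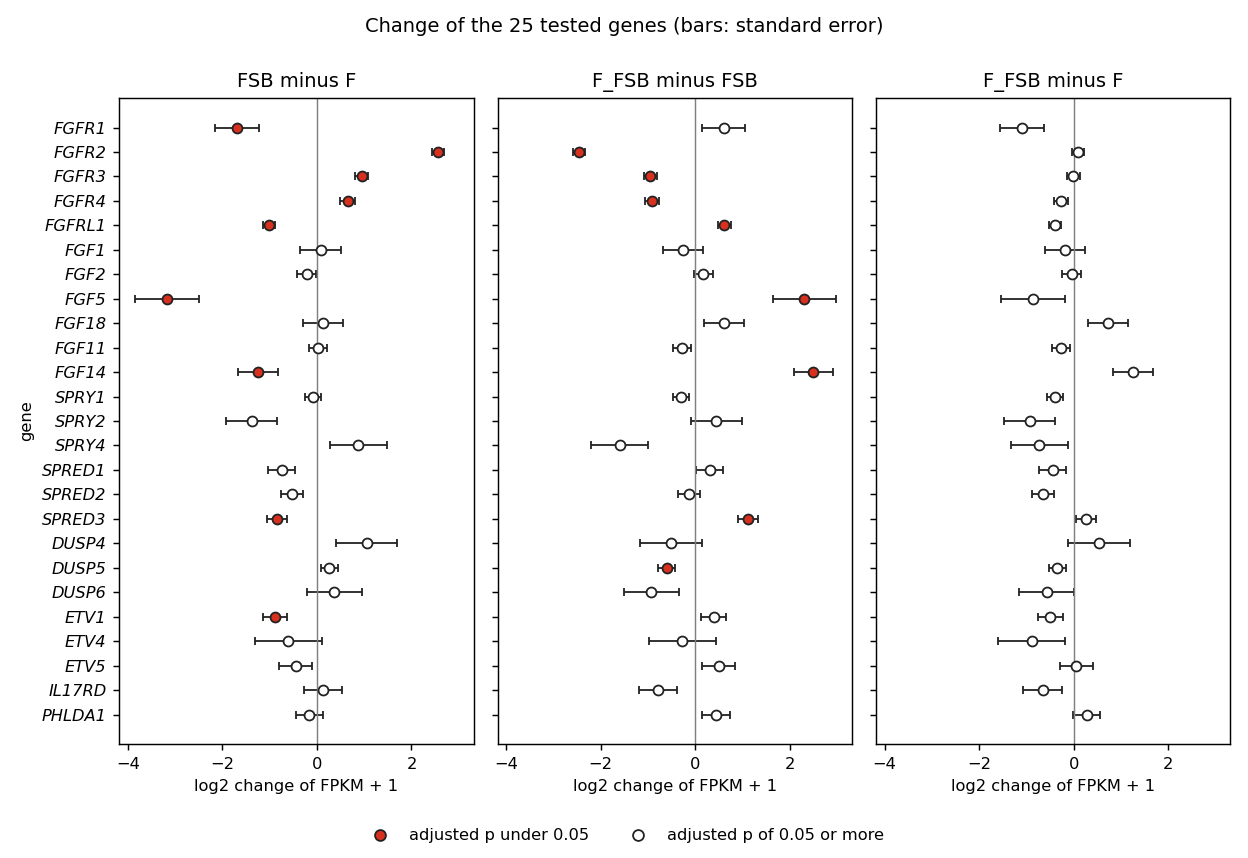
Change of each of the 25 tested genes in log2(FPKM + 1) for FSB against F, F_FSB against FSB and F_FSB against F, as points with standard errors from limma (3 libraries per group). Filled points passed at a BH-adjusted p under 0.05: 9 genes for FSB against F, 8 for F_FSB against FSB and 0 for F_FSB against F.

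Of the 5 receptor genes, FGFR2 was higher in FSB and low in F_FSB and F, FGFR3 and FGFR4 were also higher in FSB than in F_FSB or F, and FGFR1 and the decoy-like FGFRL1 were lower in FSB than in F. FGFR1 was the most abundant kinase receptor in all 9 libraries. The spread of the receptor values is plotted by library.

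FGFR2 (chromosome 10, 123237844 to 123357972, GRCh37), a receptor whose alternative exons decide which ligands it binds, had 0.309, 0.228 and 0.0649 FPKM in the 3 F_FSB libraries. It had 5.53, 5.11 and 6.18 FPKM in FSB and 0.168, 0.0823 and 0.101 FPKM in F. The FSB libraries lay above all others with no overlap. The mean of 5.61 ± 0.541 FPKM in FSB was 47.8 times the F mean of 0.117 ± 0.0453 and 28.0 times the F_FSB mean of 0.201 ± 0.124 (SD, n = 3). On the log2(FPKM + 1) scale FGFR2 was higher by 2.56 in FSB than in F (SE 0.12, limma, BH-adjusted p = 1.65e-05). It was lower in F_FSB than in FSB (change in log2 -2.46, SE 0.12, limma, BH-adjusted p = 2.04e-05). FGFR2 entered the test only through the FSB libraries, where it was high, so these p-values depend on that filter. Without a filter on low values the BH-adjusted p by limma was 2.37e-05 and 3.18e-05. With a pseudocount of 0.1 these changes were 4.73 and -4.34. Gene-level values do not separate the receptor's exon IIIb and IIIc forms.

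As FGFR2 had the largest increase with the inhibitor among the 25 genes, its promoter is shown. The window is the most upstream of 5 starts that RefSeq lists for the gene, from 250 bases before the start to 50 after it, at chr10:121598395-121598694 on the minus strand of GRCh38.p14. Capitals mark matches on either strand to a GC box (GGGCGG or CCGCCC) or to CGGAA or TTCCG, called ETS cores here. The shorter GGAA or TTCC, which ETS factors such as the PEA3 group bind, was not searched for and also occurs unmarked.
FGFR2: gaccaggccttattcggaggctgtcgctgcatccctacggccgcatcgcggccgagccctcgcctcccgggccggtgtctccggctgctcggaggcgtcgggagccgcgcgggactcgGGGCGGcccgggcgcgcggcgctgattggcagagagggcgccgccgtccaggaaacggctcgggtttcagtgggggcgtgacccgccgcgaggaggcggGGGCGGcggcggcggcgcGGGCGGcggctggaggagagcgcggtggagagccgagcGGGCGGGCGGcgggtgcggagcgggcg
This window had 79.3% G and C, 52 CpG dinucleotides, 5 GC boxes, of which the last pair overlaps, and 0 ETS cores. A GC box was in 45.0% and an ETS core in 34.9% of all 35116 windows of the same length in the table. Such matches describe letters and are not shown to be bound.

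FGFR3 (chromosome 4, 1795039 to 1810599), a receptor that restrains growth of cartilage, had 0.305, 0.240 and 0.474 FPKM in F_FSB, 1.51, 1.52 and 1.74 FPKM in FSB and 0.518, 0.164 and 0.360 FPKM in F. FGFR4 (chromosome 5, 176513921 to 176525127) had 0.261, 0.173 and 0.543 FPKM in F_FSB, 1.84, 1.40 and 1.24 FPKM in FSB and 0.503, 0.698 and 0.553 FPKM in F. For both genes every FSB library was above every library of the other groups. FGFR3 was higher by 0.95 in FSB than in F (SE 0.14, limma, BH-adjusted p = 0.00152) and FGFR4 by 0.65 (SE 0.15, limma, BH-adjusted p = 0.0106). In F_FSB both were lower than in FSB, with log2 changes of -0.95 and -0.91 (limma, BH-adjusted p = 0.00143 and 0.00238). Both also entered the test only through FSB, and without the filter the BH-adjusted p by limma was 0.00134 and 0.0100 for FSB against F and 0.00134 and 0.0026 for F_FSB against FSB. The ratio of the FSB mean to the F mean was 4.57 for FGFR3 and 2.55 for FGFR4.

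**Figure D2:**
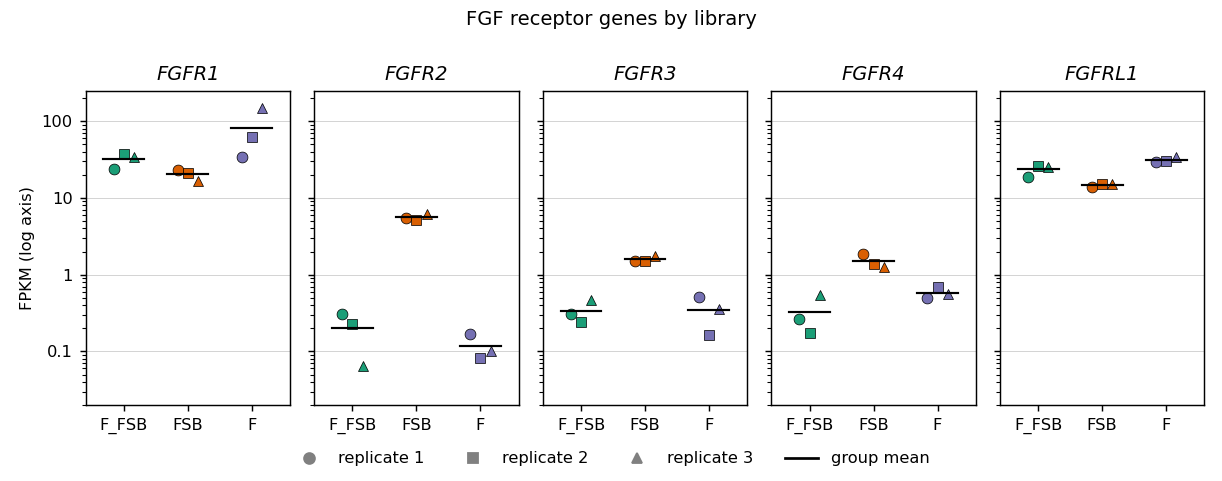
FPKM of the 5 receptor genes on a shared log axis, with 1 symbol per library and a line at the group mean, for F_FSB, FSB and F. FGFR2 lies between 5.11 and 6.18 FPKM in FSB and at 0.309 FPKM or less elsewhere, while FGFR1 reaches 147 FPKM in F replicate 3.

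FGFR1 (chromosome 8, 38268656 to 38326352), the main FGF receptor of mesenchymal cells, had 23.9, 37.9 and 34.0 FPKM in F_FSB. It had 23.5, 21.2 and 16.8 FPKM in FSB and 33.7, 63.0 and 147 FPKM in F. The F libraries spread widely but all lay above the FSB libraries. FGFR1 was lower in FSB than in F (change in log2 -1.70, SE 0.46, limma, BH-adjusted p = 0.0197). The call was lost without FSB replicate 2 (limma, BH-adjusted p = 0.0538, log2 change -1.73) and without FSB replicate 3 (limma, BH-adjusted p = 0.0602, log2 change -1.57). FGFR1 did not pass between F_FSB and FSB (change in log2 0.60, limma, BH-adjusted p = 0.326) or between F_FSB and F (change in log2 -1.09, limma, BH-adjusted p = 0.542).

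FGFRL1 (chromosome 4, 1005610 to 1020686), which binds FGFs and heparin but has no kinase domain, had 18.9, 26.2 and 25.5 FPKM in F_FSB. Its levels were 14.1, 15.3 and 15.1 FPKM in FSB and 29.0, 30.4 and 34.2 FPKM in F. The 3 groups did not overlap for this gene, with F highest, F_FSB between and FSB lowest. It was lower in FSB than in F (change in log2 -1.02, SE 0.13, limma, BH-adjusted p = 0.00083) and higher in F_FSB than in FSB (change in log2 0.62, SE 0.13, limma, BH-adjusted p = 0.00618). Between F_FSB and F the log2 change of -0.40 did not pass (limma, BH-adjusted p = 0.501). Groups did not overlap for 13.0% of all genes in that comparison.

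The make-up of the kinase receptors followed these levels. FGFR1 made up 96.5% to 98.3% of the summed FGFR1 to FGFR4 FPKM in F_FSB, 64.7% to 72.6% in FSB and 96.6% to 99.3% in F. FGFR2 made up 0.185% to 1.25% in F_FSB, 17.1% to 23.8% in FSB and 0.0682% to 0.482% in F. The summed level was 24.7 to 38.6 FPKM in F_FSB, 26.0 to 32.3 FPKM in FSB and 34.9 to 148 FPKM in F. These shares restate the levels above and were not tested separately.

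Among the ligands, FGF5 was nearly absent with the inhibitor and present without it, while FGF2 itself stayed between 2.53 and 4.61 FPKM and passed in no comparison. FGF5 (chromosome 4, 81187742 to 81212171), a ligand of the FGF4 subfamily known in the early embryo and in the hair cycle, had 1.71, 1.61 and 18.2 FPKM in the F_FSB libraries. It had 0.0346, 0.0271 and 0.0540 FPKM in FSB and 8.25, 8.25 and 8.53 FPKM in F. Every FSB library was below every other library, the F libraries were close together, and F_FSB replicate 3 stood above all 8 others. The F mean of 8.34 ± 0.164 FPKM was 216 times the FSB mean of 0.0386 ± 0.0139 (SD, n = 3), a mean so low that Cufflinks gave each FSB value an interval that reached 0.

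FGF5 was lower in FSB than in F (change in log2 -3.17, SE 0.67, limma, BH-adjusted p = 0.00717) and higher in F_FSB than in FSB (change in log2 2.31, SE 0.67, limma, BH-adjusted p = 0.0253). The call between F_FSB and FSB was lost when any 1 FSB library was left out (limma, BH-adjusted p = 0.0676, 0.0684 and 0.0607), and with only F_FSB and FSB in the fit (0.0555). Without F_FSB replicate 3 that change was 1.36 and still passed. F_FSB did not pass against F (change in log2 -0.86, limma, BH-adjusted p = 0.688), but without F_FSB replicate 3 it was lower (change in log2 -1.81, limma, BH-adjusted p = 0.00282). Whether FGF5 passed between F_FSB and F thus depended on 1 library. With a pseudocount of 0.1 the changes were -5.93 for FSB against F and 4.80 for F_FSB against FSB.

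FGF5 is shown as the gene with the largest decrease with the inhibitor among the 25. The more upstream of 2 RefSeq windows lies at chr4:80266338-80266637 on the plus strand of GRCh38.p14, with the same marking.
FGF5: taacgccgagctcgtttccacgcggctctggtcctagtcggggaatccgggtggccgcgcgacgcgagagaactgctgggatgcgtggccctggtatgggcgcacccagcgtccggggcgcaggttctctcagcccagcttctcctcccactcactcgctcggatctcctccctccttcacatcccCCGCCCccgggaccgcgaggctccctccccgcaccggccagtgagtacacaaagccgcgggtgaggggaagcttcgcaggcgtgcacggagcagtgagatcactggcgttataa
It had 67.0% G and C, 31 CpG dinucleotides, 1 GC box and 0 ETS cores as defined above.

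**Figure D3:**
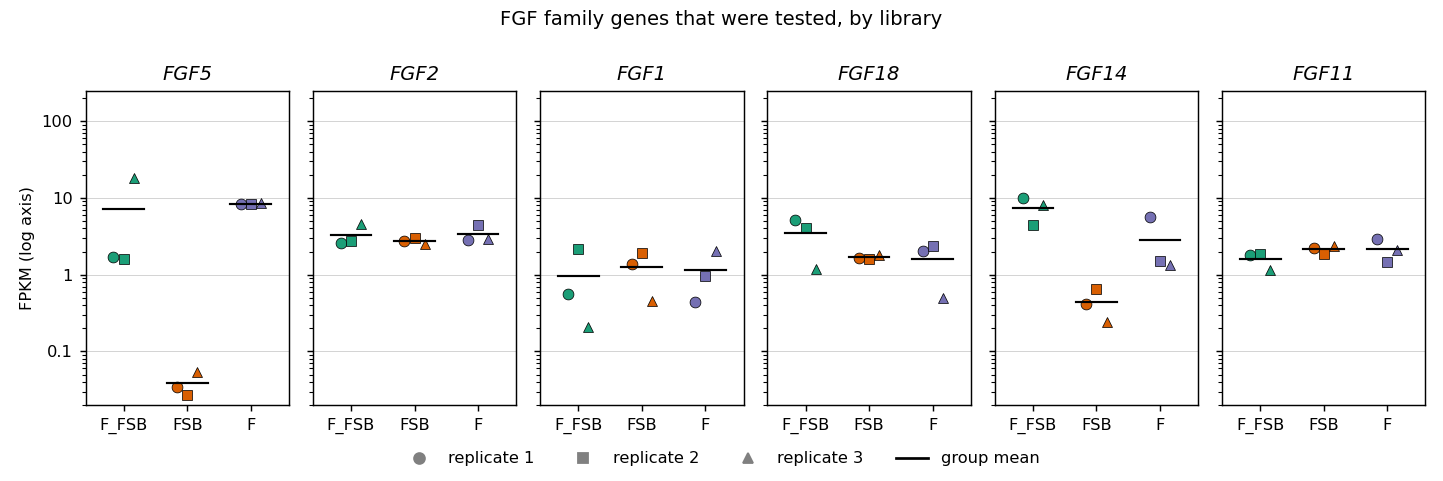
FPKM of the 6 FGF family genes that were tested, on a shared log axis, with 1 symbol per library and a line at the group mean, for F_FSB, FSB and F. FGF5 is at 0.0540 FPKM or less in FSB and at 1.61 FPKM or more elsewhere, and FGF2 lies between 2.53 and 4.61 FPKM in all 9 libraries.

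FGF2 (chromosome 4, 123747863 to 123819390), the gene for the ligand that was also added to the media, had 2.61, 2.75 and 4.61 FPKM in F_FSB, 2.75, 3.02 and 2.53 FPKM in FSB and 2.83, 4.45 and 2.96 FPKM in F. The 3 groups overlapped. Its log2 change was -0.21 for FSB against F (SE 0.20), 0.17 for F_FSB against FSB (SE 0.20) and -0.040 for F_FSB against F (SE 0.20), and it passed in none (limma, BH-adjusted p = 0.425, 0.514 and 0.956). NUDT6 overlaps FGF2 in the tables and had a mean of 3.61 FPKM over the 9 libraries. The sources used here do not say whether counting used the strand, so reads of the pair may be shared.

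FGF1 (chromosome 5, 141971743 to 142077635), a ligand for all FGF receptors, had 0.553, 2.13 and 0.211 FPKM in F_FSB, 1.39, 1.90 and 0.458 FPKM in FSB and 0.444, 0.956 and 2.04 FPKM in F. Within each group its lowest and highest library differed by 4 times or more, and the groups overlapped. LOC100652742 overlaps FGF1 in the tables, so reads may be shared. That locus had 0.217 FPKM in F_FSB replicate 1, 1.53 FPKM in F_FSB replicate 2, where FGF1 was highest, and values near 0 elsewhere. FGF18, a ligand of the FGF8 subfamily that acts on growing bone and cartilage, averaged 3.49 ± 2.07 FPKM in F_FSB, 1.69 ± 0.110 in FSB and 1.62 ± 0.997 in F (SD, n = 3). No comparison passed for it (limma, with BH-adjusted p of 0.842 for FSB against F, 0.281 for F_FSB against FSB and 0.611 for F_FSB against F).

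FGF14 and FGF11 encode FGF homologous factors, which stay in the cell and bind voltage-gated sodium channels instead of FGF receptors. FGF14 (chromosome 13, 102373205 to 103054124) had 9.88, 4.39 and 8.02 FPKM in F_FSB, 0.420, 0.656 and 0.241 FPKM in FSB and 5.71, 1.50 and 1.33 FPKM in F. Every FSB library was below every library of the other groups. LOC283481, which overlaps FGF14 in the tables, ran the other way. It had 2.05, 2.43 and 3.84 FPKM in FSB and 0.197 to 1.04 FPKM elsewhere, and here too reads may be shared. FGF14 was higher in F_FSB than in FSB (change in log2 2.50, SE 0.42, limma, BH-adjusted p = 0.00259), and the F_FSB mean was 16.9 times the FSB mean. It was lower in FSB than in F (change in log2 -1.25, SE 0.42, limma, BH-adjusted p = 0.0438). That call was lost without F replicate 1 (change in log2 -0.76), without any 1 of the 3 FSB libraries, and without F_FSB replicate 1 or 3, with BH-adjusted p of 0.0505 to 0.113 by limma. It was also lost without a filter on low values (0.0747), with quantile normalization (0.0585) and with only FSB and F in the fit (0.0509). FGF11 averaged 1.60 ± 0.397 FPKM in F_FSB, 2.15 ± 0.257 in FSB and 2.17 ± 0.747 in F (SD, n = 3) and passed in none (limma, BH-adjusted p = 0.264 or more).

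The remaining 16 FGF family genes were too low to test. FGF3, FGF4, FGF6, FGF16, FGF19 and FGF21 were listed at 0 in all 9 libraries. Of the other 10, FGF7, a ligand made by mesenchyme for epithelial FGFR2, had the highest group mean, with 0.144 ± 0.0780 FPKM in F_FSB, 0.128 ± 0.0790 in FSB and 0.764 ± 0.634 in F (SD, n = 3). FGF10, a related mesenchymal ligand, was at 1.83 FPKM in F_FSB replicate 3 and at 0.108 FPKM in F replicate 3, and was listed at 0 in the other 7 libraries. FGF8, FGF9, FGF12, FGF13, FGF17, FGF20, FGF22 and FGF23 had group means of 0.212 FPKM or less. Thus the hormone-like ligands FGF19, FGF21 and FGF23, and FGF4 and FGF8 of early development, were at or near 0 in these cultures.

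The feedback genes were all expressed well enough to test, and few passed. In FSB against F, 2 of 14 passed, SPRED3 and ETV1, beside 41.9% of all genes. In F_FSB against FSB, 2 of 14 passed, SPRED3 and DUSP5, beside 41.8% of all genes. Several genes differed more between the 3 F libraries than between the group means.

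SPRY4 (chromosome 5, 141689992 to 141704620), a Sprouty inhibitor of RAS-ERK signalling, had 10.8, 22.9 and 13.0 FPKM in F_FSB, 61.0, 56.1 and 29.7 FPKM in FSB and 15.3, 14.1 and 71.1 FPKM in F. All FSB libraries were above all F_FSB libraries, while the F libraries lay on both sides of FSB. The log2 change was 0.87 for FSB against F (SE 0.60), -1.59 for F_FSB against FSB (SE 0.60) and -0.72 for F_FSB against F (SE 0.60), and none passed (limma, BH-adjusted p = 0.276, 0.0646 and 0.704). Without F replicate 3, SPRY4 was higher in FSB than in F (change in log2 1.61, limma, BH-adjusted p = 0.0168) and lower in F_FSB than in FSB (change in log2 -1.59, limma, BH-adjusted p = 0.00944). With only F_FSB and FSB in the fit it was lower in F_FSB as well (limma, BH-adjusted p = 0.0160).

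DUSP6 (chromosome 12, 89741837 to 89746296), a cytoplasmic phosphatase that inactivates ERK, had 14.1, 35.1 and 18.7 FPKM in F_FSB. It had 48.2, 48.0 and 29.8 FPKM in FSB and 19.1, 18.9 and 85.9 FPKM in F. Here too F replicate 3 was highest of all 9 libraries, and the other F libraries were below every FSB library. Its interval from Cufflinks, 83.4 to 89.8 FPKM, lay far from those of the other F libraries (17.7 to 20.6 and 17.5 to 20.2 FPKM). Log2 changes of 0.36 for FSB against F, -0.93 for F_FSB against FSB and -0.57 for F_FSB against F did not pass (SE 0.58 each, limma, BH-adjusted p = 0.645, 0.234 and 0.757). The FSB against F change was 1.07 when F replicate 3 was left out and 0.0067 when F replicate 2 was, and passed in neither case (limma, BH-adjusted p = 0.0604 and 0.995).

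ETV4 (chromosome 17, 41605211 to 41623762), a PEA3 transcription factor, had 9.75, 15.8 and 12.9 FPKM in F_FSB, 28.8, 26.4 and 4.43 FPKM in FSB and 16.2, 15.1 and 55.4 FPKM in F. The outlying libraries of this gene were F replicate 3, which was high, and FSB replicate 3, which was low. No comparison passed, with log2 changes of -0.61, -0.27 and -0.88 for FSB against F, F_FSB against FSB and F_FSB against F (limma, BH-adjusted p = 0.521, 0.778 and 0.694). The FSB against F change turned to 0.19 without FSB replicate 3. ETV5 (chromosome 3, 185764106 to 185826901), of the same group, had 24.3, 26.9 and 20.2 FPKM in F_FSB, 22.1, 22.2 and 8.85 FPKM in FSB and 28.6, 16.1 and 25.4 FPKM in F, and passed in none (limma, BH-adjusted p = 0.332, 0.281 and 0.970 in the same order).

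DUSP6 and SPRY4 are shown because their levels were high and low in the same libraries. DUSP6 has 1 RefSeq window, at chr12:89352452-89352751 on the minus strand of GRCh38.p14, and SPRY4 has 1, at chr5:142324198-142324497 on the minus strand.
DUSP6: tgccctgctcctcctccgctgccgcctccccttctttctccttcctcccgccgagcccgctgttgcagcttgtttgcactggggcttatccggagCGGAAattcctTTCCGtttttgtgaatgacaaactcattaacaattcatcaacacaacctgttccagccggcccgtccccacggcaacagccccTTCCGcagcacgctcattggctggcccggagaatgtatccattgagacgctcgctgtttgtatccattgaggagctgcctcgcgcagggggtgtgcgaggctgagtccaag
SPRY4: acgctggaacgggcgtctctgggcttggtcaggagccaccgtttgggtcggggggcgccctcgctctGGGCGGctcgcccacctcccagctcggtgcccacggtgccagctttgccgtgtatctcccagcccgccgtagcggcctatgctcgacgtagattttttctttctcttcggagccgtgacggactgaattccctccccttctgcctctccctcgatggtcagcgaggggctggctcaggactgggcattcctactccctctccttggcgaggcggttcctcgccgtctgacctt
The DUSP6 window held 3 ETS cores (CGGAA or TTCCG) and 0 GC boxes, and the SPRY4 window held 0 such cores and 1 GC box. Over the members, the table held 56 windows of 29 genes, and 10 windows of 8 genes had an ETS core, against 34.9% of all windows. A GC box was in 33 of the 56 windows, against 45.0% of all.

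The same libraries stood out across the 14 feedback genes. F replicate 3 was the highest F library for 11 of 14, while it was highest for 34.1% of all genes tested. FSB replicate 3 was the lowest FSB library for 13 of 14, and for 33.7% of all genes. F_FSB replicate 2, which also had the highest FPKM sum of the 9 libraries, was the highest F_FSB library for 11 of 14, and for 38.6% of all genes. On the log2(FPKM + 1) scale, F replicate 3 was above the mean of the other F libraries by 1 or more for 6 of the 14, namely SPRY4, DUSP6, ETV4, SPRY2, IL17RD and SPRED1, and for 1.91% of all genes. FSB replicate 3 was below the other FSB libraries by 1 or more for ETV4, ETV5 and DUSP4, and for 1.03% of all genes. The exceptions in F were DUSP4, DUSP5 and ETV5, for which F replicate 3 was not the highest, and SPRY1 was the exception in FSB.

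These counts describe libraries and were not tested. FGF1 had the same order, with F replicate 3 highest, FSB replicate 3 lowest and F_FSB replicate 2 highest in its group. FGFR1 was also highest in F replicate 3 and F_FSB replicate 2 and lowest in FSB replicate 3. FGF5 and FGFRL1 were highest in F replicate 3 as well, but FGF2, FGF11, FGF14, FGF18, FGFR2, FGFR3 and FGFR4 were not. FGF14 and FGF18 were lowest there. Over all 25 tested genes, F replicate 3 was highest in F for 15 (34.1% of all genes). FSB replicate 3 was lowest in FSB for 18 (33.7% of all), and F_FSB replicate 2 highest in F_FSB for 15 (38.6% of all). The immediate early gene EGR1, named with EGR2 and EGR3 after their values were seen, had 6.80, 5.81 and 0.901 FPKM in F_FSB, 2.73, 2.53 and 18.1 FPKM in FSB and 5.13, 0.620 and 10.0 FPKM in F, so it was high both in F replicate 3 and in FSB replicate 3. EGR2 and EGR3, of the same family, had 4.80 and 3.15 FPKM in F replicate 3 and at most 0.605 and 0.242 FPKM in the other libraries. Other early genes did not share this order. FOSL1 had 8.43, 5.18 and 2.71 FPKM in F, and was lowest in F replicate 3. FOS had 1.71, 0.318 and 0.631 FPKM in F and IER3 had 38.8, 14.0 and 23.0 FPKM, both highest in F replicate 1. In FSB replicate 3, FOSL1 and IER3 were lowest of the FSB libraries, at 3.08 and 4.33 FPKM, and FOS was highest, at 0.797 FPKM. Their part in the feedback gene levels was not tested.

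**Figure D4:**
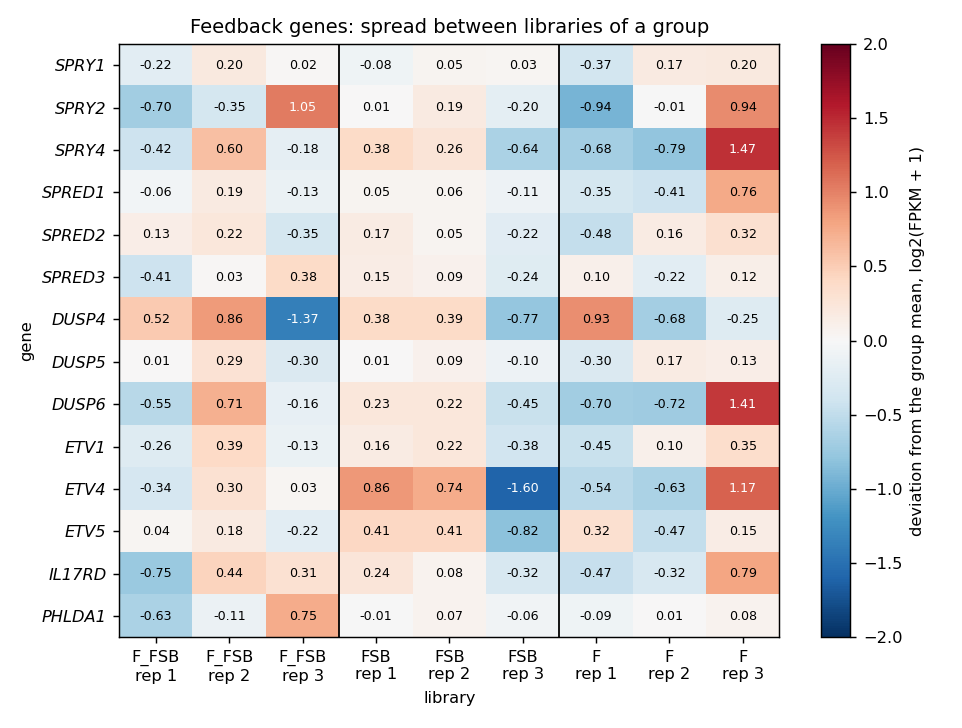
Deviation of each library from its group mean in log2(FPKM + 1) for the 14 feedback genes, with libraries of F_FSB, FSB and F as columns and colour and number giving the same value. F replicate 3 has 1.47 for SPRY4 and 1.41 for DUSP6, and FSB replicate 3 has -1.60 for ETV4.

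SPRY1 (chromosome 4, 124317956 to 124324910), another Sprouty gene, was among the steadiest, with 45.6, 61.3 and 53.9 FPKM in F_FSB, 62.5, 68.3 and 67.6 FPKM in FSB and 54.2, 79.6 and 80.9 FPKM in F. It passed nowhere (limma, BH-adjusted p = 0.697 for FSB against F, 0.178 for F_FSB against FSB and 0.543 for F_FSB against F), although all FSB libraries were above all F_FSB libraries. SPRY2 (chromosome 13, 80910111 to 80915086) had 22.9, 29.4 and 78.9 FPKM in F_FSB, 27.6, 31.3 and 23.7 FPKM in FSB and 37.5, 72.2 and 141 FPKM in F. All F libraries were above all FSB libraries, with an F mean 3.03 times the FSB mean. The log2 change of -1.38 for FSB against F did not pass (SE 0.54, limma, BH-adjusted p = 0.0724), but passed without F replicate 1 (change in log2 -1.85, limma, BH-adjusted p = 0.0285) and without F_FSB replicate 3 (limma, BH-adjusted p = 0.0353). It also passed with only FSB and F in the fit (limma, BH-adjusted p = 0.0465). Without F replicate 3 it was -0.91. Of all 41 genes, SPRY2 alone had deposited values, those of F_FSB replicate 3, F replicate 2 and F replicate 3, that lay above the interval given in the same row, so its level is less certain.

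SPRED3 (chromosome 19, 38880939 to 38886871), the least abundant SPRED gene, which encodes an inhibitor of RAS activation, had 1.98, 3.04 and 4.15 FPKM in F_FSB. It had 1.03, 0.947 and 0.551 FPKM in FSB and 2.52, 1.83 and 2.57 FPKM in F. Every FSB library was below every other library. SPRED3 was lower in FSB than in F (change in log2 -0.85, SE 0.21, limma, BH-adjusted p = 0.0145) and higher in F_FSB than in FSB (change in log2 1.11, SE 0.21, limma, BH-adjusted p = 0.00437). SPRED1 averaged 17.3 ± 2.15 FPKM in F_FSB, 13.8 ± 0.953 in FSB and 25.7 ± 13.3 in F, and SPRED2 averaged 23.8 ± 4.93, 25.8 ± 3.59 and 38.4 ± 10.6 FPKM in the same order (SD, n = 3). Neither passed between FSB and F (limma, BH-adjusted p = 0.0658 and 0.105).

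ETV1 (chromosome 7, 13930854 to 14031050), the third PEA3 gene, had 10.5, 17.0 and 11.5 FPKM in F_FSB, 10.7, 11.2 and 7.03 FPKM in FSB and 13.1, 19.6 and 23.6 FPKM in F. It was lower in FSB than in F (change in log2 -0.88, SE 0.26, limma, BH-adjusted p = 0.0275). Leaving out FSB replicate 1 or FSB replicate 3 ended the call (BH-adjusted p of 0.0522 and 0.0839 by limma), as did leaving out F replicate 2 or F replicate 3 (0.0767 and 0.0847). DUSP5 (chromosome 10, 112257625 to 112271302), a nuclear ERK phosphatase, had 1.83, 2.44 and 1.29 FPKM in F_FSB, 3.31, 3.55 and 2.99 FPKM in FSB and 1.91, 3.03 and 2.90 FPKM in F. It was lower in F_FSB than in FSB (change in log2 -0.60, SE 0.18, limma, BH-adjusted p = 0.0277). That call was lost with scaling by median ratios (limma, BH-adjusted p = 0.0576), with quantile normalization (0.0522), without a filter on low values (0.0518), and when F_FSB replicate 1, F_FSB replicate 3, FSB replicate 1 or FSB replicate 2 was left out (BH-adjusted p of 0.0616, 0.0787, 0.0748 and 0.0872 by limma).

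The other feedback genes passed in none of the 3 comparisons. DUSP4, another nuclear phosphatase, averaged 16.5 ± 10.7 FPKM in F_FSB, 20.9 ± 8.52 in FSB and 10.1 ± 6.79 in F (SD, n = 3). IL17RD, a membrane inhibitor also called SEF, averaged 13.1 ± 5.42, 22.0 ± 4.40 and 21.6 ± 11.7 FPKM in the same order. PHLDA1, an ERK-induced gene, averaged 39.5 ± 20.0 FPKM in F_FSB, 26.6 ± 1.31 in FSB and 29.9 ± 1.75 in F, with F_FSB replicate 3 at 61.8 FPKM. All 3 FSB values of PHLDA1 were below all 3 F values, but barely, with 28.01 FPKM in FSB replicate 2 and 28.02 FPKM in F replicate 1. The log2 change for FSB against F was small beside the pooled spread (limma, BH-adjusted p = 0.689).

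Other genes of the pathway were counted in lists, which were chosen with earlier results of these data known. The shares of all genes tested to set beside their counts are 28.5% higher and 13.4% lower for FSB against F, and 13.7% higher and 28.2% lower for F_FSB against FSB. Of 18 genes for receptor adaptors and the RAS-ERK cascade, all tested, 3 were higher and 1 was lower in FSB than in F, with a median log2 change of 0.11 beside 0.14 for all genes tested. The higher genes included SOS2, a RAS exchange factor, at 11.9 ± 0.623 FPKM in FSB and 7.31 ± 0.470 in F, and the RAS gene HRAS at 27.8 ± 4.20 FPKM in FSB and 18.9 ± 2.41 in F (limma, BH-adjusted p = 0.002 and 0.0151). The lower gene, named after its value was seen, was FRS2, the adaptor that links FGF receptors to the cascade, at 6.56 ± 0.489 FPKM in FSB and 8.08 ± 0.315 in F (limma, BH-adjusted p = 0.0296). Between F_FSB and FSB, SHC1 was higher and SOS2 was lower.

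Of 13 tested genes for other brakes on RAS and ERK, out of 16 in the tables, 7 were higher and 1 was lower in FSB than in F, beside 28.5% and 13.4% of all genes, with a median of 0.37 beside 0.14 for all genes. DUSP9, an ERK phosphatase, averaged 0.249 ± 0.128 FPKM in F_FSB, 6.42 ± 0.754 in FSB and 0.0514 ± 0.0230 in F (SD, n = 3). CBL, a ubiquitin ligase that downregulates receptor kinases, averaged 6.43 ± 0.831, 14.8 ± 1.38 and 6.42 ± 0.685 FPKM in the same order. Both passed between FSB and F (limma, BH-adjusted p = 1.11e-05 and 0.000447) and between F_FSB and FSB (limma, BH-adjusted p = 1.82e-05 and 0.000459). Between F_FSB and FSB, 1 gene of the list was higher and 7 were lower in F_FSB, beside 13.7% and 28.2% of all genes, with a median of -0.48 beside -0.13. DUSP9 passed the filter only through FSB.

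Of 16 tested heparan sulphate genes, out of 21 in the tables, 3 were higher and 2 lower in FSB than in F, and 5 were higher and 3 lower in F_FSB than in FSB, with medians of -0.37 and 0.17. NDST1, which sulphates heparan chains, averaged 32.3 ± 3.22 FPKM in F_FSB, 52.4 ± 4.79 in FSB and 35.0 ± 3.93 in F (limma, BH-adjusted p = 0.00591 for FSB against F and 0.0026 for F_FSB against FSB). NDST2, a related enzyme, ran the other way, with 8.60 ± 0.777 FPKM in F_FSB, 6.24 ± 0.324 in FSB and 9.09 ± 0.855 in F (limma, BH-adjusted p = 0.00579 and 0.0108 in the same order). Of 12 tested co-receptors and binding proteins, out of 16 in the tables, 3 were higher and 3 lower in FSB than in F, and 2 were higher and 3 lower in F_FSB than in FSB, with medians of -0.13 and 0.08. FGFBP3, an FGF carrier protein, averaged 3.65 ± 1.52 FPKM in F_FSB, 14.4 ± 5.80 in FSB and 2.18 ± 0.975 in F, and FLRT2, a membrane protein that interacts with FGF receptors, averaged 61.9 ± 9.21, 28.9 ± 6.34 and 56.6 ± 6.43 FPKM in the same order (limma, BH-adjusted p = 0.00255 and 0.00332 for FSB against F).

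Of 8 tested early genes that ERK can induce, out of 12 in the tables, 0 were higher and 2 were lower in FSB than in F (limma with BH adjustment), and 3 had an unadjusted p under 0.05. The median of the list was 0.41, opposite in sign to the genes that passed. These were JUNB, an AP-1 subunit that TGF-β also induces, at 17.7 ± 3.38 FPKM in F_FSB, 3.34 ± 0.511 in FSB and 18.2 ± 2.49 in F, and IER3 at 31.3 ± 7.01, 7.20 ± 2.50 and 25.3 ± 12.5 FPKM in the same order (limma, BH-adjusted p = 0.00011 and 0.0106). Between F_FSB and FSB, 2 of the 8 were higher and 1 was lower. Of 9 tested splicing regulators known to act on FGF receptor exons, out of 12 in the tables, 5 were higher and 1 was lower in FSB than in F, beside 28.5% and 13.4% of all genes, with a median of 0.44 beside 0.14. Between F_FSB and FSB, 1 was higher and 5 were lower, beside 13.7% and 28.2% of all genes, with a median of -0.54 beside -0.13. KHSRP averaged 98.9 ± 5.95 FPKM in FSB and 62.1 ± 3.97 in F, and MBNL1 averaged 18.1 ± 2.78 FPKM in FSB and 32.6 ± 2.39 in F (limma, BH-adjusted p = 0.00163 and 0.00262). ESRP1, the epithelial splicing factor that favours the IIIb forms of FGF receptors, did not exceed a group mean of 0.0480 FPKM. No gene of the 6 lists (18, 13, 16, 12, 8 and 9 tested, with FRS2 in 2 lists) passed between F_FSB and F (limma with BH adjustment). In that comparison 5 genes had an unadjusted p under 0.05 by limma, beside 9.04% of all genes tested.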

How the data were processed

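Total RNA of 9 cultures was sequenced from libraries made with a strand-specific kit, per the labels' protocols. The file headers show Cufflinks gene tables, with FPKM and its lower and upper bound as deposited by the authors. TopHat2 2.0.12, Cufflinks 2.1.1 and GRCh37 are listed in the submitters' processing notes. Annotation, options and strand settings: not given in the sources used here. Coordinates are 1-based on GRCh37. Promoter windows are RefSeq's on GRCh38.p14 and were not mixed with those of the tables.

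Fragment counts are not in the tables. Low values of intronless olfactory receptor genes, scaled by length, recurred in only 2 to 8 genes per library, so no depth is given. The 95 loci with a status other than OK in any library were left out, none of them a member.

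The analysis used log2(FPKM + 1) and limma 3.58.1 (R 4.3.3). Group means were fitted to all 9 libraries together, with the variance trended on the mean. Two-sided p-values were BH-adjusted over 13216 genes, and the procedure was checked on simulated data. Python 3.11.15, pandas 2.3.3 and matplotlib 3.10.9 served for joining and drawing. Alternatives were another pseudocount, 2 other filters, 2 other scalings, no trend, 2 groups only, a replicate block, and each library left out.

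Members and lists were chosen with earlier results of these data known. Genes past the threshold in any comparison, FGF2, FGFR1 to FGFR4, SPRY1, SPRY2, SPRY4, DUSP6, ETV4 and ETV5 are given by library. Others are given by mean or count, with 2 or 3 genes of smallest adjusted p from each list, and exceptions said.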

Additional observations from a re-analysis of the deposited data

How the results depend on the processing

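All 17 called log2 changes of the named genes kept their sign in the 282 values that the alternatives gave, and 256 of these passed. A log2 change here is a difference of group means. Other filters, no trend, 2 groups only and the replicate block leave it unmoved. So does leaving out a library of a group outside the comparison. The count of kept signs was therefore partly fixed in advance. Counts of calls among the 41 genes ranged from 6 to 10 for FSB against F, from 6 to 9 for F_FSB against FSB and from 0 to 1 for F_FSB against F when each library was left out, the last being FGF5 without F_FSB replicate 3. With at least 5 FPKM in 3 libraries, 4 were called for F_FSB against FSB, since fewer genes were tested. Over all genes, F_FSB against F gave 1 call, 0 without the filter on low values, and 0 to 77 when each library was left out, with 77 without F replicate 1. The median change of all genes for FSB against F was 0.14, and 0.0023 after scaling by median ratios. Of all calls 68.0% were higher in FSB, and 49.6% after that scaling, where 3 of the 41 genes were higher and 7 lower.

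Replicate numbers are shared by the groups. Correlations of same-numbered deviations ran from -0.136 to 0.292, and those of different-numbered ones from -0.230 to 0.127. With 3 libraries per group, these values cannot decide whether the libraries were paired. With the replicate block, 10, 8 and 0 of the 41 genes were called in FSB against F, F_FSB against FSB and F_FSB against F, and 4842, 4983 and 0 of all genes. The gene gained in FSB against F was SPRY2 (limma, BH-adjusted p = 0.0445).

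Changes that did not pass crossed 0 for some genes when 1 library was left out. For FSB against F they ranged from -1.04 to 0.19 for ETV4 and from -0.28 to 0.0094 for SPRY1. For F_FSB against FSB they ranged from -0.074 to 0.80 for SPRY2, from -0.030 to 0.29 for FGF2 and from -1.07 to 0.16 for ETV4. For F_FSB against F the ranges were -0.11 to 0.087 for FGFR3, -0.24 to 0.12 for FGF2, -0.18 to 0.21 for ETV5, -0.92 to 0.14 for DUSP6 and -1.11 to 0.012 for SPRY4. FGFR3 was at 0.024 with a pseudocount of 0.1 and 0.028 with quantile normalization in that comparison. The cause was not tested.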
